A study of Mus musculus with 16 samples.

Results

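The step of mouse T cell development from the CD4+CD8+ double positive (DP) thymocyte to the CD8 thymocyte was measured as messenger RNA in control animals. The comparison takes 8 control samples of the 16 samples measured: 3 of DP thymocytes, called DP control 1 to 3, and 5 of CD8 thymocytes, called CD8 control 1 to 5. Its members are the 24974 genes listed in both count tables, of which 11758 had enough counts to be tested. The control genotype is Tox4;F/F, homozygous for a Tox4 allele with loxP sites around several exons and carrying no Cre; the methods describe young adult littermates on a C57BL/6 background. The other samples of the study, named cKO, add a Cre recombinase driven by the proximal Lck promoter and are used here once, for the same step with the floxed allele exposed to Cre. Per the methods both kinds of cell were isolated by flow cytometric sorting for RNA-seq, the CD8 cells as TCRβ+CD8+ cells. The DP and CD8 libraries were made as separate experiments and counted in separate tables, with no cell type measured in both. Cell type and experiment therefore cannot be told apart in any value below.

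DP thymocytes are the stage at which the T cell receptor (TCR) alpha chain gene is assembled by the RAG recombinase and the finished receptor is tested on peptide presented by MHC molecules. Cells that pass this positive selection stop recombining, turn off 1 of the 2 coreceptors and become CD4 or CD8 single positive cells; choice of the CD8 lineage is known to depend on the transcription factor Runx3, and the CD4 lineage on ThPOK, the product of Zbtb7b. Single positive cells then mature, gain competence to respond to cytokines and interferon, and leave the thymus along a gradient of sphingosine-1-phosphate.

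Of the libraries, totals were 16519236 to 18478757 counts in the DP control samples and 9420085 to 13530783 in the CD8 control samples. Values are given as normalized CPM, counts scaled to equal library size with the 8 libraries normalized together, and changes as log2 fold changes of CD8 over DP each with a standard error (SE) and, where printed, a Benjamini-Hochberg adjusted p of the edgeR quasi-likelihood test; rises and falls below are on the log2 scale. A gene was called when the adjusted p was under 0.05, the fold change at least 1.5 and the mean TPM (counts divided by exon length and scaled to a fixed sum) at least 1. The first principal component held 76.2% of the variance and separated the cell types; correlations of log2 CPM were 0.842 to 0.882 between cell types, 0.956 to 0.988 among CD8 samples and 0.978 to 0.988 among DP samples. CD8 control 1 stood apart in the number of genes with a count, 17741 against 13708 to 14194 in the other 4 CD8 samples. CD8 control 1 and 2 held more mRNA of DP genes than the other 3: the median over Cd4, Rag1, Rag2, Dntt, Ptcra and Arpp21 was 3.49% and 5.33% of the DP mean, against 0.681% to 1.31%. Xist, the RNA that coats the inactive X chromosome, read 5157, 5188 and 3405 normalized CPM in CD8 control 1, 2 and 5 and under 1 in CD8 control 3, CD8 control 4 and all 3 DP samples. The labels do not say whether samples are separate animals, so p-values measure the spread between these samples.

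Most defining markers followed the labels, and both CD8 chains were lower in CD8 than in DP samples. Cd4, which encodes the CD4 coreceptor, was at 1798, 1544 and 1846 normalized CPM in the DP samples and at 62.4, 67.0, 6.08, 3.69 and 10.5 in CD8 control 1 to 5. The groups did not overlap, and within the CD8 group the first 2 samples were the highest; the log2 change was -5.86 ± 0.79 (SE), adjusted p = 5.82e-05, and -7.96 without those 2. Cd8a, the alpha chain of the other coreceptor, read 2328, 1919.9 and 1942 in DP and 1566, 1580.1, 1652, 1490.3 and 1569 in CD8 samples. It was a little lower in every CD8 sample than in any DP sample, by less than the 1.5-fold needed for a call (log2 change -0.39 ± 0.10 (SE), adjusted p = 0.00668). Cd8b1, its beta chain, fell from 1467 ± 60.0 (SD, n = 3) to 844 ± 62.2 (SD, n = 5), a log2 change of -0.80 ± 0.10 (SE). With a smooth trend on exon length removed from each library it was -0.47 and not called. Of the 11 DP markers 10 were called lower and none higher (median log2 change -4.43). Of the 10 mature CD8 markers 8 were called higher, with Cd8b1 called lower (median 4.16). Cd8a and Cd8b1 are on both lists, so the fall of Cd8b1 is counted in each. The background for these counts is 22% of the genes tested called higher in CD8 cells and 22.3% called lower.

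**Figure D1:**
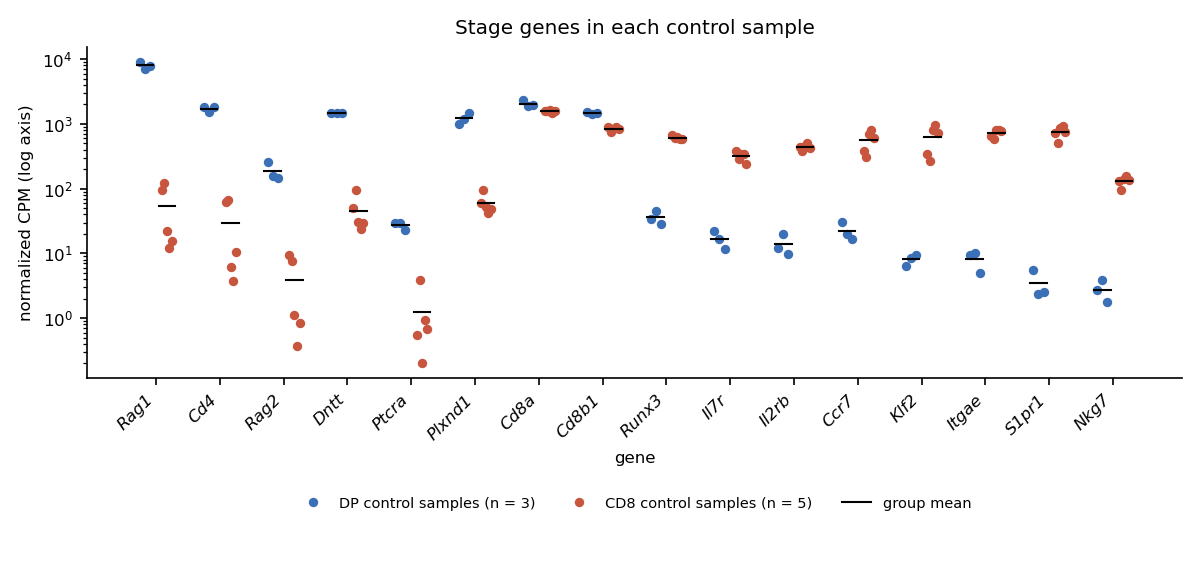
Normalized CPM (log axis) of 16 stage genes in each of the 3 DP control and 5 CD8 control samples, with black bars at the group means. For every gene shown the groups are separate; Rag1, Cd4 and Rag2 spread widely among the CD8 samples, where CD8 control 1 and 2 are the 2 highest.

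Across the 11758 genes tested, 2588 were called higher and 2625 lower in CD8 cells, 44.3% in all, and the median log2 change was -0.01. By adjusted p alone 7093 genes (60.3%) passed, and 7536 (64.1%) had an unadjusted p under 0.05. At least 4-fold differences were called for 715 genes higher and 430 lower, and at least 16-fold differences for 179 higher and 85 lower. The groups of samples did not overlap for 6684 genes, 56.8% of those tested, and for 4894 of the 5213 called. Tox4 itself, the floxed gene, read 148, 164 and 173 in DP and 202, 193, 206, 207 and 184 in CD8 samples (log2 change 0.29 ± 0.09 (SE), adjusted p = 0.0156), which is below the fold change for a call.

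**Figure D2:**
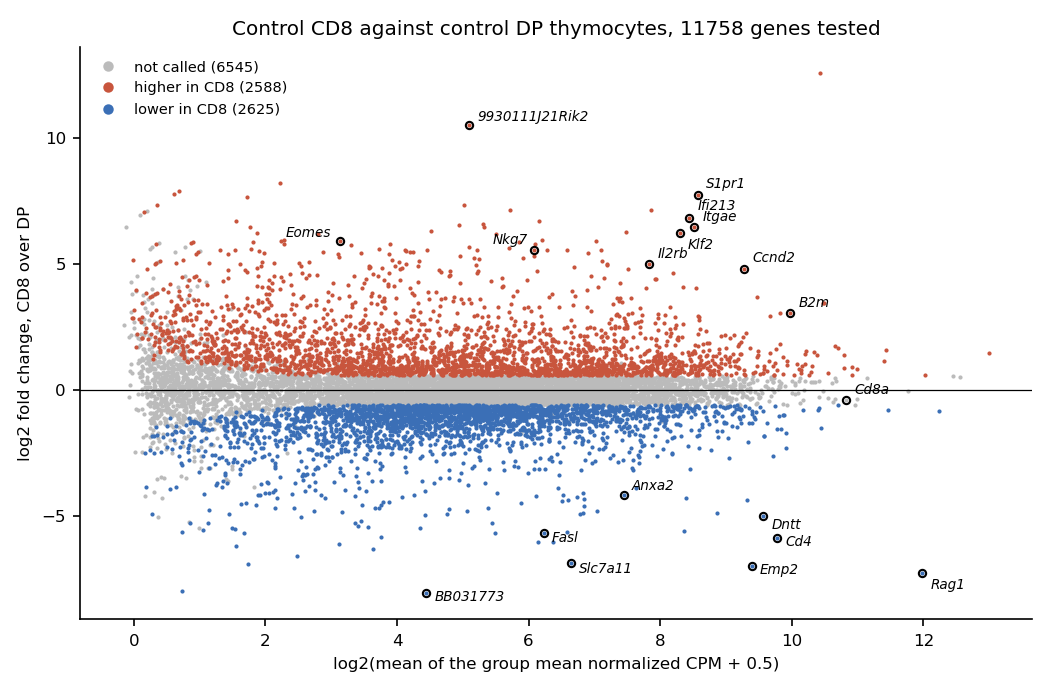
Each point is 1 of 11758 genes, with log2 of its mean normalized CPM plus 0.5 on the x axis and its log2 fold change of CD8 over DP on the y axis; red genes were called higher, blue genes lower and grey genes were not called. Labelled genes are named in the text, from BB031773 at -8.04 to 9930111J21Rik2 at 10.51. The highest unlabelled point is Xist, which is high in 3 of the 5 CD8 samples.

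The largest rises with separate groups were led by 9930111J21Rik2 (chr11:48965817-49051242 on mm10), at 0.113, 0 and 0 in DP and 60.8, 63.0, 73.4, 67.2 and 70.8 in CD8 samples, a log2 change of 10.51 ± 0.34 (SE). The DP group held 2 counts of it in all, and the ratio of pooled counts had a 95% exact counting interval of 508- to 15184-fold. Its neighbour 9930111J21Rik1 rose by 7.33 ± 0.26 (SE), or 7.97 without DP control 1; their annotated spans overlap on the same strand next to the interferon-inducible GTPases Tgtp1 and Tgtp2, so how reads were divided between the 2 is uncertain. S1pr1, the sphingosine-1-phosphate receptor that lets mature cells leave the thymus, rose from 5.57, 2.39 and 2.50 to 718, 509.5, 862, 929.8 and 754 (log2 change 7.76 ± 0.35 (SE)). The gap between the groups was far wider than the spread within either. Adgrg5, an adhesion G protein-coupled receptor, rose from 3.22 ± 1.81 to 461 ± 67.3 (log2 change 7.15 ± 0.36 (SE)). Rflnb, which encodes refilin B, a filamin-binding protein, rose by 7.17 ± 0.36 (SE), or 7.81 without DP control 2. Lrrc75b and Zfp973 had 1 count each over the DP group, and their ratios of pooled counts had intervals of 79.5- to 17618-fold and 53.6- to 11935-fold. Zfp973 has an annotated span that contains 17 other genes, most of them related zinc finger genes, and its reads are uncertain. Nrbp2, Cables1 and Trnp1 had no count in any DP sample; against a floor of 3 counts over the DP group they were at least 40.2-fold, 37.3-fold and 28.1-fold higher in CD8 cells. Without CD8 control 1 and 2 none of the 3 was called, Nrbp2 and Cables1 for a mean TPM under 1 and Trnp1 for too few counts.

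The largest falls held the recombinase and several genes with no known part in it. Rag1 went from 9044, 7076 and 7959.6 in DP to 94.3, 123, 22.5, 12.2 and 15.7 in CD8 samples. No CD8 sample came near the DP range, and the log2 change was -7.23 ± 0.74 (SE), or -8.90 without CD8 control 1 and 2. Slc7a11, the cystine transporter subunit, fell from 231, 152 and 208 to 4.79, 3.11, 0.412, 0.378 and 0.301 (log2 change -6.85 ± 0.54 (SE), or -9.07 without those 2). Emp2, a tetraspan membrane protein, read 860.5, 2503 and 627 in DP and 16.3, 9.60, 16.2, 4.73 and 6.85 in CD8 samples. DP control 2 was well above the other DP samples, and the log2 change was -6.97 ± 0.51 (SE), or -6.13 without it. Log2 changes were -6.31 for the non-coding RNA Nron, -6.08 for Medag and -6.59 for Ccdc153, and -7.52, -7.88 and -8.03 without CD8 control 1 and 2. Lsmem1 and BC065403 had 2 and 3 counts over the CD8 group, and DP over CD8 ratios with intervals of 40.6- to 1227-fold and 28.5- to 412-fold; such intervals cover counting error only. BB031773 was at 69.3, 24.5 and 33.4 in DP and at most 0.446 in CD8 samples (log2 change -8.04 ± 0.55 (SE), or -8.72 without CD8 control 1). Smim5 had no count in any CD8 sample and was at least 41.1-fold lower there, against a floor of 3 counts over the group. Nron, BB031773 and Smim5 lie within or across a gene on the opposite strand. The methods describe strand-specific counting.

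Ranked by the difference in TPM, the rises were led by B2m, the light chain of MHC class I, from 756 to 6531 TPM on average, then Rn45s, Shisa5, Rps26 and Mir5125. Shisa5, an endoplasmic reticulum protein linked to p53-dependent death, rose from 281 to 3245 TPM (log2 change 3.46 ± 0.16 (SE)). Rn45s, at 2213 to 6428 TPM, is the ribosomal RNA precursor, most of which polyA selection removes. Mir5125 is annotated over 79 bases inside Srrm2 on the same strand; Srrm2 itself rose by 1.59 ± 0.12 (SE), and reads of the 2 cannot be told apart. The largest TPM falls were Rag1, Tcf7 (TCF-1, a T cell identity factor), Tpt1, Dntt and Ptma. Tcf7 went from 6722 to 4011 TPM, and it read 5383, 6441 and 6721 normalized CPM in DP and 5102, 4019, 2849.5, 2664 and 2837 in CD8 samples. Its log2 change was small, -0.82 ± 0.21 (SE), and CD8 control 1 and 2 were nearest the DP range.

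In the recombination machinery the lymphoid-specific parts fell most. Rag2, the partner of Rag1, read 261, 155 and 144 in DP and 9.59, 7.72, 1.13, 0.378 and 0.828 in CD8 samples. Dntt, the terminal transferase that adds untemplated bases at junctions, read 1450.2, 1473 and 1489 and 49.5, 96.0, 30.8, 23.7 and 29.4. Both were far lower in every CD8 sample, with log2 changes of -5.62 ± 0.65 (SE) and -5.0 ± 0.38 (SE), or -7.89 and -5.71 without CD8 control 1 and 2. Of 16 genes of V(D)J recombination and end joining, 10 were called lower and 5 higher, against a background of 22.3% and 22%. Among the general repair factors Xrcc6, the Ku70 subunit, fell from 339.8 ± 33.3 to 40.1 ± 10.1 (log2 change -3.08 ± 0.17 (SE)) while Xrcc5, the Ku80 subunit, rose by 0.84 ± 0.16 (SE). Lig4, the ligase of end joining, fell by 2.80 ± 0.30 (SE). Going the other way, the kinases Atm and Prkdc rose by 1.95 ± 0.17 (SE) and 1.20 ± 0.11 (SE), and the polymerase Poll by 2.62 ± 0.23 (SE). The list moved in both directions, with Rag1, Rag2 and Dntt furthest down.

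Receptor chains and signalling molecules moved less. Ptcra, the pre-TCR alpha chain, fell from 30.0, 29.1 and 22.8 to 0.557, 3.86, 0.206, 0.945 and 0.677. CD8 control 2 was the highest of its group, and the log2 change was -4.43 ± 0.51 (SE), or -5.46 without it. Of the CD3 and zeta chains, Cd3d and Cd247 fell (log2 changes -1.22 ± 0.09 (SE) and -0.92 ± 0.09 (SE)), Cd3e rose by 0.70 ± 0.20 (SE) (not called without CD8 control 1 and 2, 0.43) and Cd3g did not pass (-0.09 ± 0.11 (SE)). In the list of 35 proximal TCR signalling genes 14 were called higher and 8 lower (median 0.32). These are 40.0% and 22.9%, against 22% and 22.3% of all genes tested. Lck, the kinase that binds the coreceptor tails, fell from 2054 ± 218 to 737 ± 19.3 (log2 change -1.48 ± 0.10 (SE)), whereas Fyn, the related kinase, rose from 184 ± 16.3 to 543 ± 31.3 (1.56 ± 0.10 (SE)). Themis, needed for positive selection in DP cells, fell by 1.27 ± 0.15 (SE), and the adaptor Lat fell by 0.87 ± 0.12 (SE). The ubiquitin ligase Cblb rose by 2.48 ± 0.15 (SE) and the transcription factor Nfatc2 by 2.23 ± 0.13 (SE), while Zap70, the kinase that docks on the CD3 and zeta chains, was not called (-0.32 ± 0.09 (SE)).

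Genes induced by TCR engagement in positive selection were mostly higher. Of 19, 11 were called higher and 2 lower, 57.9% and 10.5% against 22% and 22.3% of all genes tested. The median was 1.26. The list had 11 called higher, 4 lower and a median of 0.82 without CD8 control 1 and 2. Egr3 and Egr2, early targets of the receptor, rose by 3.13 ± 0.21 (SE) and 1.96 ± 0.42 (SE) (Egr2 by 1.28 without them), Nr4a3 by 2.48 ± 0.19 (SE) and the tetraspanin Cd53 by 2.90 ± 0.16 (SE). Cd69, the surface marker of recent signalling, rose from 55.1, 43.3 and 51.2 to 88.8, 122, 193, 236 and 140.5. All CD8 samples were above all DP samples, with a wide spread among them (log2 change 1.65 ± 0.27 (SE)). Cd5, which tracks receptor signal strength, did not pass the fold change (0.32 ± 0.19 (SE)). Itm2a and Id3 were the 2 called lower with all samples kept.

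Among 35 lineage and identity factors 11 were called higher and 10 lower, 31.4% and 28.6% against 22% and 22.3% of all genes tested, with a median log2 change of 0.02. Runx3 rose from 34.2, 45.5 and 28.5 in DP to 664, 608, 626, 584 and 588 in CD8 samples. The CD8 samples lay close together, and the log2 change was 4.09 ± 0.16 (SE). Zbtb7b, which encodes ThPOK, was low in DP at 18.3, 11.4 and 14 and lower in CD8 samples at 4.91, 2.45, 1.86, 1.70 and 3.69 (log2 change -2.31 ± 0.31 (SE)). The retinoic acid receptor Rarg rose from 3.14 ± 1.39 to 151 ± 16.1 (5.58 ± 0.25 (SE)), Bach2 by 3.02 ± 0.11 (SE), Rora by 2.48 ± 0.24 (SE) and Lef1 by 1.51 ± 0.15 (SE). Myb, Ets2, Patz1 and Satb1 fell, with log2 changes of -1.82, -2.35, -1.10 and -0.79. Tcf12 and Tcf4, E proteins that hold the DP programme, fell (log2 changes -0.83 ± 0.11 (SE) and -1.24 ± 0.22 (SE)); their inhibitor Id2 rose by 1.27 ± 0.25 (SE) and the other inhibitor Id3 fell by 0.97 ± 0.17 (SE).

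Maturation and egress genes showed some of the widest gaps. In a list of 27 tested genes 19 were called higher and 4 lower (median 1.57). These are 70.4% and 14.8%, against 22% and 22.3% of all genes tested. Klf2, the transcription factor upstream of S1pr1, read 6.47, 8.47 and 9.53 in DP and 346, 265, 808, 953 and 723 in CD8 samples. CD8 control 1 and 2 were the lowest of their group, and the log2 change was 6.24 ± 0.49 (SE). Foxo1, which acts above Klf2 and Il7r, rose by 2.92 ± 0.16 (SE). Itgae, the alpha chain of the CD103 integrin of CD8 thymocytes, rose from 9.34, 10.1 and 4.93 to 645, 583, 802, 819.9 and 773 (6.48 ± 0.26 (SE)), and its partner Itgb7 by 3.25 ± 0.19 (SE). On the falling side stood Plxnd1, a semaphorin receptor of DP cells, from 998, 1193 and 1469 to 60.4, 95.4, 52.2, 42.3 and 48.7 (-4.35 ± 0.24 (SE)). Cd24a, a marker of immaturity, also fell (-1.81 ± 0.31 (SE), or -2.42 without CD8 control 1 and 2).

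Chemokine receptors were more often called higher than lower. Ccr9, a receptor of DP cells for CCL25, fell from 1371, 1160.5 and 1186 to 754, 785, 572, 492 and 562 (-0.97 ± 0.15 (SE)), and Ccr7, which guides cells to the medulla, rose from 30.5, 20.1 and 16.7 to 383, 311, 704, 797 and 612 (4.65 ± 0.37 (SE)). Cxcr6 and Ccr8 rose by 4.41 ± 0.30 (SE) and 3.18 ± 0.32 (SE) from near 1 CPM, and Cxcr4 did not pass (0.46 ± 0.31 (SE)). Of 13 tested, 6 were called higher and 1 lower (46.2% and 7.69%, against 22% and 22.3% of all genes tested).

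Cytokine receptors and their feedback genes were called higher in 19 of 29 cases and lower in 4. That is 65.5% and 13.8%, against 22% and 22.3% of all genes tested. Il7r, the IL-7 receptor alpha chain that DP cells silence, rose from 21.9, 16.7 and 11.6 to 377, 283, 339.6, 338 and 243 (4.24 ± 0.23 (SE)). Il2rb, shared by the IL-2 and IL-15 receptors, rose from 12.3, 19.8 and 9.64 to 433, 381, 460.1, 510.1 and 424 (4.99 ± 0.24 (SE)). Neither pair of groups overlapped. The common gamma chain Il2rg rose by 1.47 ± 0.13 (SE), the kinase Jak3 that it binds by 3.0 ± 0.13 (SE), and the STAT5 target Cish by 3.71 ± 0.29 (SE). Il6ra rose by 4.72 ± 0.31 (SE) and Il27ra by 2.67 ± 0.10 (SE), while Ifngr1 fell by 1.43 ± 0.14 (SE) and its partner Ifngr2 rose by 1.81 ± 0.20 (SE). Socs1, a DP cell brake on cytokine signals, fell by 0.76 ± 0.28 (SE) (not called without CD8 control 1 and 2, -0.43).

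In the Bcl2 family 2 survival genes moved in opposite directions. Bcl2 rose from 57.7, 57.0 and 46.0 to 326, 321, 373, 376 and 348, and Bcl2l1, which encodes the Bcl-xL of DP cells, fell from 271, 234 and 274 to 50.1, 41.6, 34.1, 39.5 and 36.7. The changes were of like size and opposite sign, 2.70 ± 0.12 (SE) and -2.69 ± 0.12 (SE). Mcl1 (0.21 ± 0.10 (SE)) and the death gene Bcl2l11, which encodes BIM (0.43 ± 0.11 (SE)), were not called; Bad and Bmf fell (log2 changes -1.84 ± 0.18 (SE) and -1.20 ± 0.13 (SE)). Over 14 genes 2 were called higher and 4 lower (14.3% and 28.6%, against 22% and 22.3% of all genes tested).

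Cell division genes were more often called lower than higher in CD8 cells. Of 47 genes of mitosis and cytokinesis 38 were called lower and 0 higher (median -1.35), and of 51 DNA replication genes 26 were lower and 2, Orc3 and Pole2, higher (median -0.60). The shares called lower were 80.9% and 51.0%, against 22.3% of all genes tested. Ccnb1, the mitotic cyclin, had a log2 change of -2.88 ± 0.28 (SE), its kinase Cdk1 of -2.23 ± 0.29 (SE), the ribonucleotide reductase subunit Rrm2 of -2.31 ± 0.29 (SE) and the sliding clamp Pcna of -1.46 ± 0.13 (SE). Top2a, the topoisomerase of dividing cells, read 559.7, 648 and 389 in DP and 105, 221, 165, 173 and 222 in CD8 samples (-1.59 ± 0.22 (SE)). Mki67, the Ki-67 antigen, did not follow them: it was at 454, 291 and 192 in DP and 282, 533, 393, 428 and 479 in CD8 samples, with overlapping groups (log2 change 0.44 ± 0.25 (SE), adjusted p = 0.155); without DP control 1 the change was 0.81 and passed the test. The helicase subunits Mcm3, Mcm4 and Mcm6 were not called either, at -0.37, -0.04 and -0.36. In the list of 22 proliferation genes taken from the study 13 were lower and none higher. Most of its genes are also on the mitosis or replication list, so its direction is not independent evidence. The 13 clustered histone genes that could be tested, of 69 listed, had 12 called lower (median -2.52); most mRNAs of this kind lack a polyA tail and are caught only in part by polyA selection.

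Among D cyclins, Ccnd3, used by DP cells and their precursors, fell from 1244, 1219 and 1098 to 379, 370.0, 311, 294 and 312 (-1.83 ± 0.11 (SE)). Ccnd2 went from 48.8, 49.1 and 28.8 to 1103, 1209, 1236, 1218 and 1204 (4.82 ± 0.20 (SE)), which made it the main D cyclin by TPM in CD8 cells, 650.2 against 464 for Ccnd3. Of 6 CDK inhibitor genes 5 were called lower (83.3%, against 22.3% of all genes tested) and none higher. Those called lower included Cdkn2c (-2.49 ± 0.21 (SE)), Cdkn2d (-1.72 ± 0.14 (SE)) and Cdkn1b, which encodes p27 (-1.02 ± 0.14 (SE)). E2f2 fell by 2.50 ± 0.18 (SE) and E2f3 rose by 1.14 ± 0.16 (SE). Myc rose from 37.4 ± 2.76 to 268 ± 47.9 (2.84 ± 0.16 (SE)).

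Among the 34 gene lists the type I interferon response had the highest share of genes called higher. Of 65 genes tested 53 were called higher and none lower, with a median log2 change of 2.46; the background of genes called higher is 22%. Many interferon-induced genes carry the interferon-stimulated response element (ISRE) in their promoters. Ifit1, which binds foreign RNA, read 4.73, 5.20 and 2.72 in DP and 102, 91.8, 83.5, 90.1 and 90.5 in CD8 samples (4.43 ± 0.20 (SE)). Mx1, an antiviral GTPase, went from 0.732, 1.25 and 0.227 to 21.2, 12.2, 22.4, 25.2 and 30.9 (4.89 ± 0.44 (SE), or 5.52 without DP control 2), and the oligoadenylate synthetase Oas2 from 3.71, 3.8 and 2.27 to 173, 107, 104, 117 and 153 (5.32 ± 0.26 (SE)). In each of the 3 the CD8 samples stood far above all DP samples. Ifi213, of the AIM2-like receptor family, rose most, from 6.04 ± 2.27 to 687 ± 60.9 (6.83 ± 0.25 (SE)), with the caution that its family is made of near-identical copies. Irf7, a transcription factor of the response, rose from 16.2, 20.3 and 13.2 to 145, 98.8, 118, 148 and 131 (2.95 ± 0.18 (SE)). Isg15, a ubiquitin-like product often used as a readout of the response, was low and close to the threshold at 3.71, 5.10 and 2.55 in DP and 8.36, 4.05, 6.08, 5.77 and 12.1 in CD8 samples (log2 change 0.94 ± 0.36 (SE), adjusted p = 0.0394). Isg15 lost its call without DP control 1 (0.93), DP control 3 (0.73), CD8 control 1 (0.90) or CD8 control 5 (0.68). Ly6e, Bst2, Stat2 and Ifit2 were not called, at -0.09, -0.30, 0.33 and 0.28. Of the interferon receptor chains Ifnar2 rose by 1.02 ± 0.11 (SE) and Ifnar1 was not called (0.53 ± 0.08 (SE)).

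The promoters of 4 of these genes show the response element beside the values. They are the 4 largest rises on the list with the core GAAANNGAA, or its complement TTCNNTTTC, within 150 bases before the start of transcription, read 5′ to 3′ on the strand of the gene from the RefSeq promoter table (GRCm38.p6); capitals mark the core.
Ifi213, chr1:173599273-173599422, minus strand: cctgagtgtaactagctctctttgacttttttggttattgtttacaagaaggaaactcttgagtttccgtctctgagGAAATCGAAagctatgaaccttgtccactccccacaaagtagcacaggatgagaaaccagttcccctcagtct
Ifit3b, chr19:34607807-34607956, plus strand: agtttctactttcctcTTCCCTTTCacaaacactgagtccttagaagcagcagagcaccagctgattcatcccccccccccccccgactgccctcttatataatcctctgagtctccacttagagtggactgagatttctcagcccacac
Ifit3, chr19:34583379-34583528, plus strand: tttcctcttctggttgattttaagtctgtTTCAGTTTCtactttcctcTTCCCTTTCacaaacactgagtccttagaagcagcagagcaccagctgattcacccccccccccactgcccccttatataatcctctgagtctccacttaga
Ifit1, chr19:34640739-34640888, plus strand: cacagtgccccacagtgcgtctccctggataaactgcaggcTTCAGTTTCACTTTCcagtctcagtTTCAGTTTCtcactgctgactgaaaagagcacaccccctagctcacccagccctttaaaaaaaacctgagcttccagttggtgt
Ifit1 holds 3 matches, 2 of them overlapping, Ifit3 holds 2, and the other 2 promoters hold 1 each. Ifit3 and Ifit3b are closely related copies that share most of this stretch, and rose by 4.84 ± 0.30 (SE) and 5.05 ± 0.54 (SE). Of the 27025 genes that have a promoter there, 9.76% hold this core on either strand in the 300 bases from 250 before to 50 after the start. Only 49 of the 65 interferon genes matched a promoter, under 80%, so the share for the list is not given. A match is a description of the letters, and binding was not measured.

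**Figure D3:**
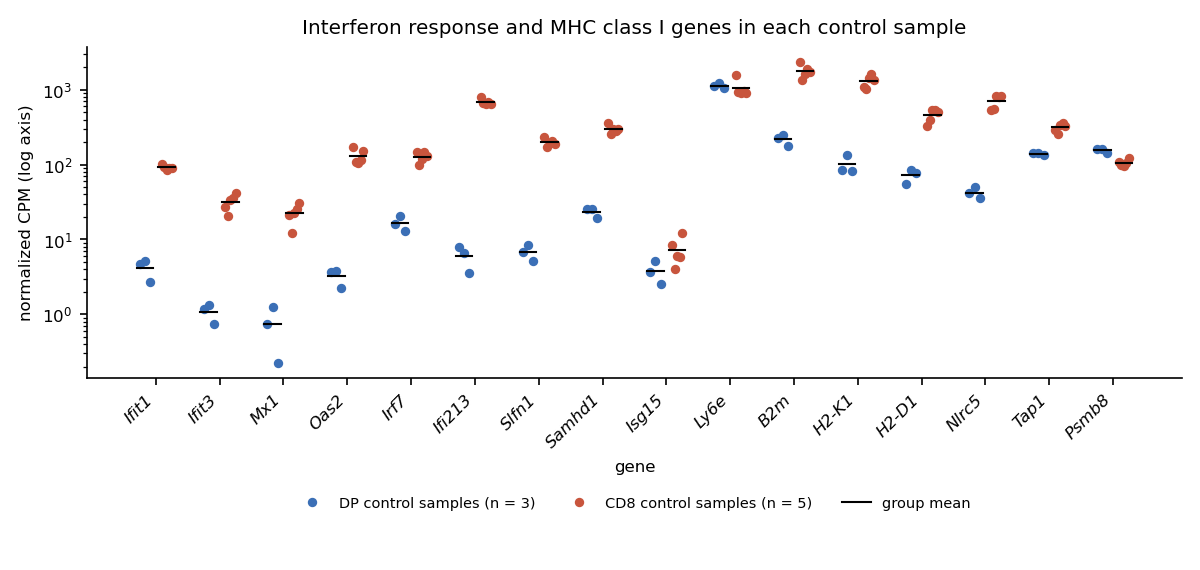
Normalized CPM (log axis) of type I interferon response genes (Ifit1 to Ly6e) and MHC class I pathway genes (B2m to Psmb8) in 3 DP control and 5 CD8 control samples; black bars are group means. Ifit1 to Samhd1 are separated by a wide gap, the groups overlap for Isg15 and Ly6e, and Psmb8 is lower in every CD8 sample by less than the fold change of a call.

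Genes of antigen presentation by MHC class I were more often called higher than lower. H2-K1, a classical heavy chain, rose from 84.9, 136 and 82.5 to 1102, 1027, 1431, 1638 and 1354 (3.70 ± 0.23 (SE)), H2-D1 by 2.67 ± 0.21 (SE) and the shared light chain B2m from 225, 249 and 177 to 2344, 1368, 1629, 1910.4 and 1703 (3.05 ± 0.20 (SE)). Nlrc5, the activator of class I genes, rose from 41.9, 49.5 and 35.3 to 541, 558, 815, 803 and 812 (4.06 ± 0.21 (SE)). All 5 CD8 samples were above all 3 DP samples for each of these. Tap1 rose by 1.17 ± 0.12 (SE) and its partner Tap2 fell by 0.80 ± 0.08 (SE); the immunoproteasome subunits Psmb8, Psmb9 and Psmb10 were not called. Of 25 tested, 14 were called higher and 2 lower, Tap2 and Cd1d1, which presents lipid to NKT cells (-1.35 ± 0.12 (SE)). These are 56.0% and 8.0%, against 22% and 22.3% of all genes tested. Reads of H2 genes can be split among near-identical copies.

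Genes of the cytotoxic and memory programme rose in 17 of 22 tested and fell in 2, with the highest median of the 34 lists (3.10). As shares these are 77.3% and 9.09%, against 22% and 22.3% of all genes tested. Nkg7, a granule membrane protein, rose from 2.70, 3.85 and 1.76 to 130.4, 94.9, 139, 159 and 135 (5.56 ± 0.26 (SE)). Eomes, the T-box factor, went from 0.619, 0 and 0.170 to 16.7, 7.81, 18.8, 20.5 and 17.5 (5.93 ± 0.59 (SE), or 7.47 without DP control 1), and Tbx21, which encodes T-bet, by 2.16 ± 0.40 (SE). Crtam, Cst7 and Klrd1 rose by 5.58, 5.08 and 4.94 on the log2 scale, and Prf1, which encodes perforin, by 2.84 ± 0.19 (SE). Levels of effector genes stayed low in absolute terms: Gzmb reached 5.57 ± 1.44 CPM and Ccl5 3.53 ± 1.58, and Ccl5 lost its call without DP control 1 (1.22) or DP control 3 (1.28). The 2 called lower were Fasl, the death ligand, from 99.2, 269.7 and 69.4 to 7.36, 2.63, 1.44, 2.08 and 1.35 (-5.67 ± 0.54 (SE), or -4.86 without DP control 2 and -6.49 without CD8 control 1 and 2), and Gzma, from 21.8, 23.8 and 11.2 to 3.12, 4.89, 1.13, 2.84 and 2.79 (-2.67 ± 0.35 (SE)). DP control 2 was the highest sample for both, and the groups did not overlap.

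NF-kB genes rose in 10 of 18 and fell in 1, 55.6% and 5.56% against 22% and 22.3% of all genes tested. Bcl3, an atypical inhibitor protein, rose by 5.20 ± 0.26 (SE), Rel by 2.12 ± 0.23 (SE), Relb by 2.15 ± 0.31 (SE) and Nfkb1 by 1.46 ± 0.09 (SE). Nfkbia fell by 0.93 ± 0.33 (SE) (not called without CD8 control 1 and 2, -0.64). In the list of immediate early and heat shock genes 10 of 23 were higher and 3 lower. Hspa1a, the inducible chaperone, read 0.225, 1.20 and 0.737 in DP and 3.79, 22.4, 24.6, 99.5 and 17.8 in CD8 samples, with CD8 control 4 far above the next (5.51 ± 1.02 (SE), or 4.56 without it). Hspa1b, a near-identical copy, rose by 5.33 ± 0.91 (SE). Fos and Jun were not called, at -0.95 ± 0.51 (SE) and -1.23 ± 0.60 (SE). Whether the time and handling between thymus and lysis differed between the experiments was not tested.

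Oxidative phosphorylation and ribosomal protein genes were lower in CD8 cells, and both lists are made of short genes. Of 76 oxidative phosphorylation genes 69 were called lower and none higher (median -1.25), and of 74 cytosolic ribosomal protein genes 43 lower and 3, Rps26, Rps2 and Rpsa, higher (median -0.68). The shares called lower were 90.8% and 58.1%, against 22.3% of all genes tested. Examples are Atp5k and Ndufa2, subunits of ATP synthase and complex I, at -2.71 ± 0.24 (SE) and -2.66 ± 0.24 (SE), and Rps29 at -2.56 ± 0.20 (SE); Ndufs1 and Sdha, longer genes of the same pathway, were not called (-0.20 and -0.40). Exon length moved with the change over all genes: the median log2 change was -0.51 in the shortest of 5 equal classes of the genes tested, up to 1698 bases, and 0.31 in the longest, from 5091 bases. In the shortest class 42.2% of genes were called lower and 13.6% higher, and in the longest 10.3% and 31.1%. With a smooth length trend removed from every library, an alternative added after seeing the data, 43 of the 76 oxidative phosphorylation genes were still called lower (median -0.64; the background of the offset fit is 21.2% higher and 19.7% lower), while the ribosomal protein genes had 9 lower and 12 higher, with a median of the other sign (0.12). Of the genes called above, Cd8b1, Lat (-0.43), Id3 (-0.31), Socs1 (-0.36), Orc3 (0.43), Nfkbia (-0.63) and Tpt1 (-0.01) were not called under the offset, and Psmb9 was (1.17). The trend with GC content was smaller, with medians from 0.06 in the lowest of 5 classes to -0.11 in the highest. A length trend of cell type and one of library making cannot be told apart here.

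**Figure D4:**
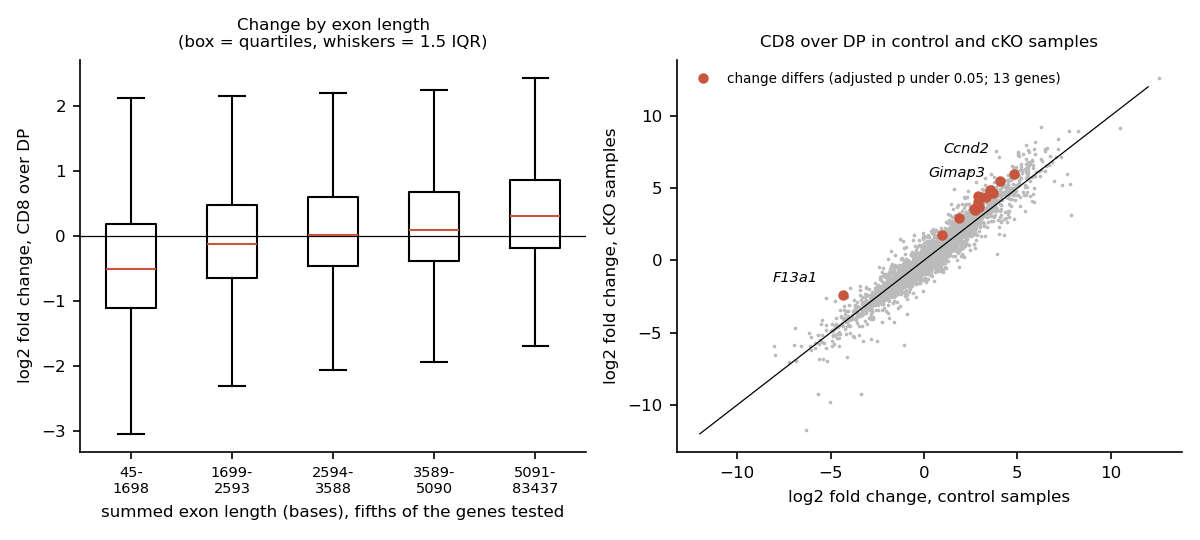
Left, log2 fold changes of CD8 over DP in 5 equal classes of summed exon length (boxes, quartiles; whiskers, up to 1.5 times the interquartile range; outliers not drawn), with medians rising from -0.51 to 0.31. Right, the log2 fold change of each gene in control samples (x axis) and in cKO samples (y axis) with the line of equality; the 13 genes in red differ between the 2, and all lie above the line.

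Other metabolic genes moved singly. Ldhb, the lactate dehydrogenase subunit that favours lactate use, fell from 361, 346 and 401 to 23.1, 33.1, 21.8, 20.7 and 27.2 (-3.87 ± 0.15 (SE)), while Ldha was not called (-0.38 ± 0.14 (SE)). Hk2 rose by 1.40 ± 0.24 (SE) and the amino acid transporters Slc7a5 and Slc7a1 by 1.27 ± 0.14 (SE) and 1.59 ± 0.12 (SE). Of 28 cholesterol genes 8 were lower (28.6%, against 22.3% of all genes tested) and 1 was higher, the efflux pump Abca1 (1.71 ± 0.19 (SE)).

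**Figure D5:**
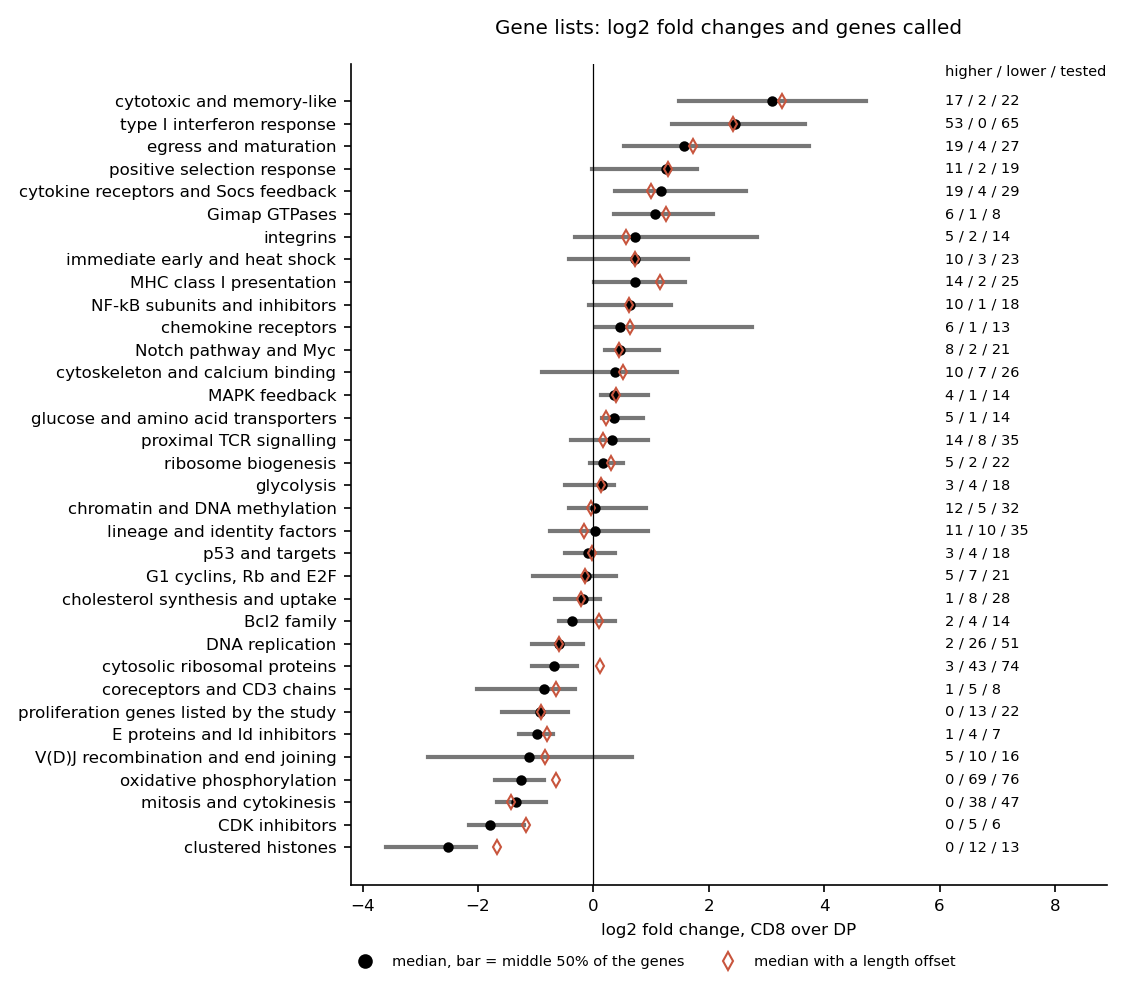
Median log2 fold change of CD8 over DP (black points) and its middle 50% of genes (grey bars) for 34 gene lists, with the genes called higher, called lower and tested at the right; open diamonds are medians with a length offset. Cytotoxic and interferon lists have the highest medians, 3.10 and 2.46, and clustered histones the lowest, -2.52; the diamond lies across 0 from the point for the Bcl2 family, ribosomal proteins, lineage factors and chromatin genes.

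A pair of promoters stands for the replication genes, whose known regulators are the E2F factors. The motif TTTCCCGC, or its complement GCGGGAAA, was in the 300 bases of 8 of the 43 replication genes with a promoter in the table (18.6%; 43 of 51 matched) and in 1 of 41 mitosis genes (2.44%), against 1.24% of all 27025 promoters and 2.5% of the 9405 promoters matched to the 11758 genes tested. Shown are the only 2 replication genes called lower that have a match within 150 bases before the start, in the same format, with the motif in capitals.
Cdc6, chr11:98908001-98908150, plus strand: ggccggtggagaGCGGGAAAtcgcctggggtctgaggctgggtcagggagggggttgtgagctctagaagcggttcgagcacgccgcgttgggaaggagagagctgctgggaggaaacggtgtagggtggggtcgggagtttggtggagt
Gins3, chr8:95633409-95633558, plus strand: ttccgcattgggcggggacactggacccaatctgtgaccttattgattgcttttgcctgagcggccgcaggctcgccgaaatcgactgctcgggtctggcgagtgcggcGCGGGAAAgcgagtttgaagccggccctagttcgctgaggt
Cdc6, a loader of the replicative helicase, had a log2 change of -0.95 ± 0.25 (SE) and Gins3, a helicase subunit, of -0.72 ± 0.18 (SE). The motif is a description only.

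Markers of other cell types were measured beside these results. Over all genes tested, 22% were called higher in CD8 cells and 22.3% lower. Of 9 macrophage and monocyte markers tested 8 were called lower in CD8 cells (88.9%) and 1 higher (11.1%). The sum of the 10 listed was 91.3 to 143 CPM in DP and 28.0 to 48.6 in CD8 samples. The complement genes C1qa, C1qb and C1qc, defining for thymic macrophages, were at 3.08 ± 2.28, 3.48 ± 1.63 and 3.31 ± 2.85 CPM in DP and at 0.0618 ± 0.0568, 0.254 ± 0.257 and 0.120 ± 0.143 in CD8 samples. B cell markers had 4 of 9 called lower (44.4%). Their sums were 78.0 to 173 in DP and 36.1 to 118 in CD8 samples, with Cd74 and the MHC class II genes H2-Aa, H2-Ab1 and H2-Eb1 making most of each. Neutrophil and erythroid markers summed to under 5 CPM in every sample, and 6 of 7 erythroid markers were at 0 in all CD8 samples. Dendritic cell markers summed to 33.5 to 52.1 CPM in DP and 323 to 814 in CD8 samples, with Ccr7 at 30.5, 20.1 and 16.7 and 383, 311, 704, 797 and 612 and Bst2, an interferon-induced gene, making much of the rest in DP samples, thymic epithelial markers to 26.7 to 37.5 CPM in DP and 78.1 to 103 in CD8 samples, mostly Ly75, and stromal and endothelial markers to 142 to 149 CPM in DP and 190.2 to 258 in CD8 samples, mostly Pecam1. Ccr7, Ly75 and Pecam1 are genes that T cells also express. Markers of double negative thymocytes summed to 147 to 186 CPM in DP and 315 to 403 in CD8 samples, with Dtx1 and Kit called higher and Notch3 and Il2ra lower. Markers of CD4 and regulatory T cells were called higher in 4 of 8 and lower in 2. From DP to CD8 samples Foxp3 went from 2.26 to 12.5 CPM, Ctla4 from 4.31 to 32.8 and Ikzf4 from 4.02 to 81.5. The 2 called lower were Zbtb7b, from 14.5 to 2.92 CPM, and Il2ra, from 15.6 to 8.16. Tnfrsf18 hardly moved, at 20.8 and 20.9. Of 7 gamma-delta, NK and NKT markers tested 6 were higher (85.7%), from sums of 6.98 to 11.2 CPM in DP to 23.2 to 33.0 in CD8 samples. DP control 2, the highest library for Emp2, Fasl and Gzma, also had the highest macrophage sum of the 8. The part of such cells in these results was not tested. In bulk samples fewer cells of a type and less RNA per cell cannot be told apart.

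Tox4 read 129.7, 137 and 126 normalized CPM in DP cKO 1 to 3 and 173, 188, 178, 240.0 and 164 in CD8 cKO 1 to 5, against 148 to 173 and 184 to 207 in control samples; a count over the whole gene does not check the loss of several exons. The control and cKO sets were normalized separately, which bears on any level set across them below. The same step in cKO samples, from 3 DP to 5 CD8 samples of the same 2 experiments, called 2652 genes higher and 3055 lower of 11740 tested (22.6% and 26.0%). Genes called higher in both numbered 2213, 85.5% of the control list and 83.4% of the cKO list, and genes called lower in both 2401, 91.5% and 78.6%; none was called in opposite directions. Side by side, S1pr1 changed by 7.76 in control and 8.92 in cKO samples, Rag1 by -7.23 and -7.04, Runx3 by 4.09 and 3.92, and the interferon list had medians of 2.46 and 2.55.

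A fit of all 16 samples tested whether the change itself differed. It called 13 of 12131 genes (0.107%) at an adjusted p under 0.05, with 639 (5.27%) at an unadjusted p under 0.05. The 2 with the smallest p were neighbouring Gimap GTPases, which support lymphocyte survival. Gimap3 rose by 4.04 in control and by 5.45 in cKO samples, a difference of -1.44 ± 0.20 (SE; control minus cKO, adjusted p = 0.0140), and Gimap4 by 3.56 and 4.86. The means behind Gimap3 were 25.1 and 413 CPM in control and 6.79 and 299 in cKO samples, so the 2 genotypes lay further apart in DP than in CD8 cells. Ccnd2 (42.2 and 1194 against 19.3 and 1195) and Bcl2 (53.6 and 349 against 34.0 and 372) had the same order. Without DP control 2 or DP cKO 2, the fit called 0 genes with edgeR, with 624 (5.03%) and 681 (5.5%) genes at an unadjusted p under 0.05, and without any 1 of the 16 libraries it called 0 to 11.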

How the data were processed

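PolyA RNA from 3 DP control and 5 CD8 control samples was sequenced from strand-marking libraries; the labels name more than one RNA kit and sequencer without saying which sample used which. The deposited values are raw counts per gene, made by the authors with fastp 0.13.1, HISAT2 2.1.0 and featureCounts 1.6.1 on mm10 (GRCm38) and deposited as 1 table for DP and 1 for CD8 cells; the methods describe strand-specific alignment and counting. The CD8 table lists 24974 genes, all of which are in the DP table, and the 10 genes of the DP table alone were left out. TPM and length classes used the deposited summed exon length.

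Counts were joined by gene, filtered with filterByExpr, scaled by TMM and tested with edgeR 4.0.16 (glmQLFit and glmQLFTest, R 4.3.3; Benjamini-Hochberg adjustment; two-sided). Cell type was the only term, since the experiment is the same split and no batch term could be fitted. The change in control against cKO samples was an interaction in a fit of 16 samples. The call rule followed the methods of the study: a 1.5-fold difference or more, an average TPM of 1 or more, and a Benjamini-Hochberg value below 0.05. Genes with no count in a group were given as bounds against 3 counts over that group. The length offset was a lowess trend (span 0.3) of each library on length. The code was tested on simulated data. At these depths a gene with few counts has a wide error, and genes with 1 to 3 counts in a group were given a 95% Clopper-Pearson interval of the ratio of pooled counts.

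Named were Tox4, the 10 largest rises and falls among called genes whose groups did not overlap (Xist, Tsix and chromosome Y genes left out), the 5 largest rises and falls in TPM, and members of the gene lists and marker lists. Which list members are described, and also Xist and Srrm2, was chosen after their values were seen. The comparison and the lists were chosen with earlier results of these data known. Promoters came from RefSeq on GRCm38.p6 and matched 9405 of the 11758 genes tested, 96 of them through older symbols. Alternatives covered scaling, filters, DESeq2 1.42.0, a test against the fold change, a replicate block, length and libraries left out. A few members of the lists are counted but not reported by name here.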

Additional observations from a re-analysis of the deposited data

Results flagged for a closer look

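Among 65 groups of values of the 5 CD8 control samples checked for a sample apart from the rest, 9 stood out, where chance gives about 3.25. CD8 control 1 had 17741 genes with a count. It also had the lowest Ccnd2 value of its group, 1103 normalized CPM, the highest Fasl, 7.36, the highest Gimap3, 534, and the highest sums of neutrophil markers, 3.79, and erythroid markers, 0.557. CD8 control 2 had the highest Ptcra, 3.86, and the lowest Gimap4, 263. CD8 control 4 had the highest Hspa1a, 99.5.

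The change from DP to CD8 cells differed between control and cKO samples, by the interaction test of edgeR, for 13 genes, and it was lower in control in each of them. The differences, control minus cKO on the log2 scale, were -1.44 for Gimap3, -1.34 for Gimap4, -1.58 for Gng2, a G protein gamma subunit, -1.02 for Samhd1, the dNTP hydrolase, -1.09 for Rhof, -1.15 for Cd53, -0.80 for Tes, -0.91 for Pea15a, -0.79 for Bcl2, -0.82 for Fam102a, -1.09 for the receptor Cd226, -1.16 for Ccnd2 and -1.99 for F13a1, the A chain of coagulation factor XIII. For F13a1 the means were 184 and 183 CPM in DP control and DP cKO samples and 9.14 and 35.1 in CD8 control and CD8 cKO samples, so it was the CD8 samples that lay apart. Adjusted p was 0.0140 for Gimap3, 0.0181 for Gimap4 and 0.0196 for Gng2, and 0.0499 for the other 10. The list depended on single libraries. Without any 1 of the 16 libraries the test called 0 to 11 genes, and it called 0 without DP control 2 or DP cKO 2.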

How the results depend on the processing

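The counts of 2588 genes higher and 2625 lower stayed within 1.5 times of these under other scalings (2264 to 2610 higher, 2595 to 3044 lower), DESeq2 (2629 and 2599), other filters on counts or TPM, the length offset (2491 and 2316) and leaving out 1 library (2428 to 2667 and 2426 to 2614), both CD8 control 1 and 2 (2521 and 2653) or the 3 CD8 samples with high Xist (2431 and 2617). A fold cut-off of 2 left 1678 and 1541, and testing against a fold change of 1.5 left 1734 lower; both thresholds are stricter by construction. Scaling by library size alone moved the median of all genes to -0.12. Same-numbered DP and CD8 samples did not deviate together (r of -0.01, -0.13 and 0.05), so the numbers pair nothing; with the number as a block 2407 genes were higher and 2498 lower in control and 2539 and 2876 in cKO samples, and Cd8a, Tox4, Isg15 and Ccl5 lost significance. The 13 genes that differed between genotypes became 33 with a replicate block within each cell type, 37 with DESeq2 and 0 to 11 without 1 library; the cause was not tested. The cKO counts without 1 library were 2479 to 2862 higher and 2778 to 3040 lower. Under the length offset Mki67 turned to -0.0298, Cox5a to 0.0380, the median of the Bcl2 family to 0.10 and that of ribosomal proteins to 0.12, and Tpt1 and Cd8b1 were among the genes that lost their calls (-0.01 and -0.47). Isg15 and Ccl5 lost significance under 7 and 4 of the alternatives. The CD8 libraries were shallower than the DP libraries, and genes with too few counts were left untested.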

Other observations

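Notch pathway genes were called higher in 8 of 21 cases, Myc included, and lower in 2, Notch3 and Mycn. The shares were 38.1% and 9.52%, against 22% and 22.3% of all genes tested. Lfng, the Fringe enzyme that modifies Notch receptors, read 10.8, 7.49 and 4.99 normalized CPM in DP and 206, 227, 294, 332 and 285 in CD8 samples (5.11 ± 0.27 (SE)), and the Notch target Dtx1 rose by 3.97 ± 0.27 (SE). Notch1 rose by 0.94 ± 0.12 (SE) (not called under the length offset, 0.49), and Notch3, a receptor of earlier thymocytes, fell from 115 ± 12 (SD, n = 3) to 31.9 ± 9.89 (SD, n = 5). Mycn had a log2 change of -2.10. In the chromatin list 12 of 32 were higher and 5 lower (37.5% and 15.6%, against 22% and 22.3% of all genes tested). The methylcytosine oxidases Tet1, Tet2 and Tet3 rose by 1.18, 2.13 and 1.43 (Tet1 not called under the length offset, 0.51). Ezh2, the Polycomb methyltransferase of dividing cells, had a log2 change of -1.35.

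Of 26 cytoskeleton and calcium-binding genes 10 were called higher and 7 lower. The shares were 38.5% and 26.9%, against 22% and 22.3% of all genes tested. Ahnak, a large scaffold protein, rose from 21.5 ± 6.67 to 461 ± 53.8 (4.42 ± 0.21 (SE)) and the actin regulator Evl by 2.87 ± 0.24 (SE), while Anxa2, a membrane-binding annexin, went from 341, 347 and 299 in DP to 14.7, 27.9, 15.9, 15.1 and 19.7 in CD8 samples (-4.14 ± 0.19 (SE)). The groups did not overlap for any of the 3. Of the p53 list 3 of 18 were higher, Trp53 itself among them (0.89 ± 0.14 (SE)), and 4 lower, with Fas at -1.36; the shares, 16.7% and 22.2%, were near those of all genes tested, 22% and 22.3%. In the MAPK feedback list 4 of 14 were higher, with Spry4 at 1.87 (1.29 without CD8 control 1 and 2) and Dusp7 at 1.81, and 1 lower, Spry1 at -1.53. The MAPK shares were 28.6% and 7.14%. Integrin genes were higher in 5 of 14 and lower in 2, Gimap genes higher in 6 of 8 and lower in 1, glycolysis genes higher in 3 and lower in 4 of 18, and ribosome biogenesis genes higher in 5 and lower in 2 of 22. The glycolysis shares were 16.7% and 22.2% and the ribosome biogenesis shares 22.7% and 9.09%.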
